A study of Homo sapiens with 18 samples.

Results

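The genes described here encode inducible brakes of mitogen-activated protein kinases, grouped as feedback on the kinase ERK. They are the dual-specificity phosphatases DUSP1, DUSP4, DUSP5, DUSP6 and DUSP10, the Sprouty proteins SPRY2 and SPRY4, and the Spred proteins SPRED1 and SPRED2. Of these, DUSP10 acts on the stress kinases JNK and p38, and DUSP1 on both as well as on ERK. All 9 genes were chosen by name, with earlier results of these data known. Each was found among the 56303 genes of the deposited count table. RNA was sequenced from A2780 and SKOV3, established human lines of ovarian cancer that both carry the label WT, after daphnetin, a dihydroxycoumarin from plants, or the solvent DMSO. Each line had 3 libraries in DMSO, 3 at 20 mg/L daphnetin and 3 at 40 mg/L, 18 libraries in all. The study compared treated with control cells to find pathways and targets of daphnetin, and its title names ferroptosis and the quinone reductase NQO1. How long the cells were treated is not given in the sources used here, and the lines were grown in different media with different serum contents, so line and medium cannot be told apart.

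Growth factor receptors switch on RAS, which starts a kinase relay through RAF and MEK to ERK. Active ERK induces genes whose products damp the same relay, so the level of these transcripts is widely read as a sign of recent ERK activity. DUSP proteins remove the activating phosphates from ERK or from the stress kinases JNK and p38, Sprouty proteins act between the receptor and RAF, and Spred proteins bring the RAS inactivator neurofibromin to the membrane. Several of the DUSP genes also respond to stress kinases, so they do not report ERK alone.

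Promoter sequences are shown for the genes that moved in opposite directions in SKOV3, DUSP1 and DUSP10 upward and DUSP6, SPRY2 and SPRY4 downward. Each is the 250 bases before the RefSeq start nearest to the 5′ end of the gene in the count table, on build GRCh38.p14, read 5′ to 3′ on the gene's strand. Capitals mark TGACG, the core of the cyclic AMP response element, on either strand. RefSeq promoter entries were matched for 7 of the 9 genes.
DUSP1 (chr5:172771196-172771445, minus strand): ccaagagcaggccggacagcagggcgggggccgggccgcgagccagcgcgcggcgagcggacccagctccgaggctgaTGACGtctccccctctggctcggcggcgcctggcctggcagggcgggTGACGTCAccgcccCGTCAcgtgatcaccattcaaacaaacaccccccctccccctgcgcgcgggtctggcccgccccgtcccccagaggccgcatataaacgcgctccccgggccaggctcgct
DUSP6 (chr12:89352502-89352751, minus strand): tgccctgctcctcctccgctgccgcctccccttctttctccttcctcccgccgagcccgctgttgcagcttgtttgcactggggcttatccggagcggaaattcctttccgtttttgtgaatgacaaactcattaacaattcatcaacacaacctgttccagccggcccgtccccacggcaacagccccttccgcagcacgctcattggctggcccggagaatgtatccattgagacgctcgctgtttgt
DUSP10 (chr1:221742090-221742339, minus strand): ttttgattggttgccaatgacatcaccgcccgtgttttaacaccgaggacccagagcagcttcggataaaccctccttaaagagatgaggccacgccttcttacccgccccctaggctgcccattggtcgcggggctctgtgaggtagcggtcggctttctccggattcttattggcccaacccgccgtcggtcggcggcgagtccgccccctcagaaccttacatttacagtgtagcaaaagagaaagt
SPRY2 (chr13:80341127-80341376, minus strand): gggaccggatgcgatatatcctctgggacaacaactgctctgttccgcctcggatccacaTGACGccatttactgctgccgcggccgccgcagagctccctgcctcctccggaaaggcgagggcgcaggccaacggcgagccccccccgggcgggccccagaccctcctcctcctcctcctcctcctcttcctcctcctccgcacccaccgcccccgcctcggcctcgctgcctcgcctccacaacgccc
SPRY4 (chr5:142324248-142324497, minus strand): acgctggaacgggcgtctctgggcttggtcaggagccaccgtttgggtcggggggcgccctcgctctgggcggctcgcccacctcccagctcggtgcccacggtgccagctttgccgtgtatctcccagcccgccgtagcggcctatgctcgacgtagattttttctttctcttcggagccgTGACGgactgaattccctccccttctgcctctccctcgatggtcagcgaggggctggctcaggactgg

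The promoter of DUSP1 held 1 full cyclic AMP response element, TGACGTCA, which was present in 1.65% of 35116 RefSeq promoters cut to the same length and searched on both strands. It held 4 matches to TGACG, 2 of them the overlapping strands of that element, and TGACG was present in 21.2% of all promoters. It also held the E-box CACGTG (6.34% of promoters) and the antioxidant response element core TGACNNNGC (10.9% of promoters), which overlaps a TGACG match. SPRY2 and SPRY4 had 1 TGACG match each. SPRY2 also had the ETS element CCGGAA (14.5% of promoters), and SPRY4 had TGACNNNGC. Windows of DUSP6, DUSP10, SPRED1 and SPRED2 held none of these letters, nor did any of the 7 windows hold the AP-1 element TGANTCA (6.57% of promoters). The start used for SPRY4 lay 2208 bases, and that for DUSP6 770 bases, from the 5′ end in the count table, so these windows may not be the promoters in use.

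Total counts ran from 30016475 to 37220879 per library in A2780 and from 35105152 to 44132931 in SKOV3. Levels are given as CPM, the count of a gene scaled by TMM-adjusted library size. Differences come from the quasi-likelihood test of edgeR, Benjamini-Hochberg adjusted over every gene in the fit, and a call means an adjusted p below 0.05. The labels number the replicates without saying that they were separate cultures, so p-values reflect no more than the variation among these libraries, which may be technical. In DMSO, ERBB2, the receptor gene amplified in SKOV3, was at 2728 ± 70.9 CPM in SKOV3 against 65.7 ± 0.785 CPM in A2780 (SD, n = 3). The epithelial and carcinoma markers EPCAM, KRT8, KRT18, PAX8, WT1 and MUC16 summed to 4.72 to 6.83 CPM in the A2780 DMSO libraries, with WT1 at 0, and to 1645 to 1656 CPM in SKOV3. These defining markers were thus at or near 0 in A2780, which is labelled as an ovarian cancer cell.

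In DMSO 8 of the 9 genes differed between the lines, in both directions. SKOV3 had more DUSP1, DUSP4, DUSP5 and DUSP10 mRNA, and A2780 had more SPRY2, SPRY4, DUSP6 and SPRED1 mRNA. Of the 9 genes, 4 were called higher and 4 lower in SKOV3, where 78.3% of the 23742 genes tested were called, 41.2% higher and 37.2% lower, and 8 showed no overlap between libraries, against 79.6% of all genes. The share of these genes that differed was therefore near that of all genes. DUSP10 is in these tallies though it passed the filter on low counts only through SKOV3. Its call and its lack of overlap were thus fixed in advance.

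SPRY2, an inhibitor of receptor signalling to RAS, differed most among the genes measured in both lines. Per kilobase of exon, its level in DMSO was 71.7, 65.8 and 69.5 CPM in the A2780 libraries and 3.49, 3.41 and 3.69 CPM in the SKOV3 libraries. All A2780 libraries stood far above all SKOV3 libraries, a 19.5-fold difference (log2 -4.29 in SKOV3 against A2780, SE 0.07, adjusted p = 6.71e-38). The phosphatase DUSP10, which acts on JNK and p38, had 0 counts in 8 of 9 A2780 libraries and 4 counts in the remaining one, 40 mg/L replicate 3. In SKOV3 DMSO libraries DUSP10 had 447, 374 and 398 counts, so its CPM was at least 112-fold higher than in A2780 DMSO, taking 3 counts per library as the floor for a count of 0. This takes each count as a separate fragment. If both mates of a pair were counted, the floor is too low and the 112-fold bound too high. DUSP10 did not pass the filter on low counts in A2780, and no fold change is given for it there. In bulk RNA, fewer cells carrying a transcript and less of it per cell cannot be told apart.

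The nuclear phosphatases of the set were also higher in SKOV3. Of 5 MAPK phosphatases outside the set, 1 was called higher and 4 lower in SKOV3, beside 41.2% and 37.2% of all genes. Among the 4 lower was DUSP2, at 1.28 ± 0.354 CPM in A2780 DMSO and 0.0345 ± 0.0303 CPM in SKOV3 DMSO. DUSP5, which acts on ERK, was 6.86-fold higher in SKOV3 (log2 2.78, SE 0.22, adjusted p = 7.78e-15), and its A2780 counts were only 10 to 20 per library. DUSP4 was 4.53-fold higher (log2 2.18, SE 0.11, adjusted p = 2.7e-21) and DUSP1 3.42-fold higher (log2 1.78, SE 0.19, adjusted p = 5.7e-07). SPRY4 was 2.19-fold higher in A2780 (log2 -1.13 in SKOV3 against A2780, SE 0.08, adjusted p = 3.85e-16). DUSP6, the cytoplasmic ERK phosphatase, was 1.28-fold higher in A2780 (log2 -0.36, SE 0.09, adjusted p = 0.000395), and SPRED1 1.20-fold higher (log2 -0.26, SE 0.08, adjusted p = 0.00561). SPRED2 was not called (log2 -0.11, 95% interval -0.29 to 0.08, adjusted p = 0.283).

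Per kilobase, the order of levels in A2780 DMSO was SPRY2 at 69.0 ± 2.97 CPM, SPRY4 at 12.3 ± 1.08, DUSP6 at 8.60 ± 0.681, SPRED2 at 4.47 ± 0.379, DUSP1 at 3.69 ± 0.972, SPRED1 at 2.10 ± 0.112, DUSP4 at 0.475 ± 0.0294, DUSP5 at 0.198 ± 0.0532 and DUSP10 at 0 (SD, n = 3). Only the neighbours SPRED2 and DUSP1 overlapped between libraries. In SKOV3 DMSO the order was DUSP1 at 12.5 ± 2.08 CPM per kilobase, DUSP6 at 6.72 ± 0.422, SPRY4 at 5.58 ± 0.461, SPRED2 at 4.14 ± 0.326, SPRY2 at 3.53 ± 0.142, DUSP10 at 3.52 ± 0.174, DUSP4 at 2.15 ± 0.124, SPRED1 at 1.75 ± 0.00787 and DUSP5 at 1.36 ± 0.226. There the neighbours SPRY2 and DUSP10 overlapped. SPRY2 thus led in A2780 and DUSP1 led in SKOV3.

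**Figure D1:**
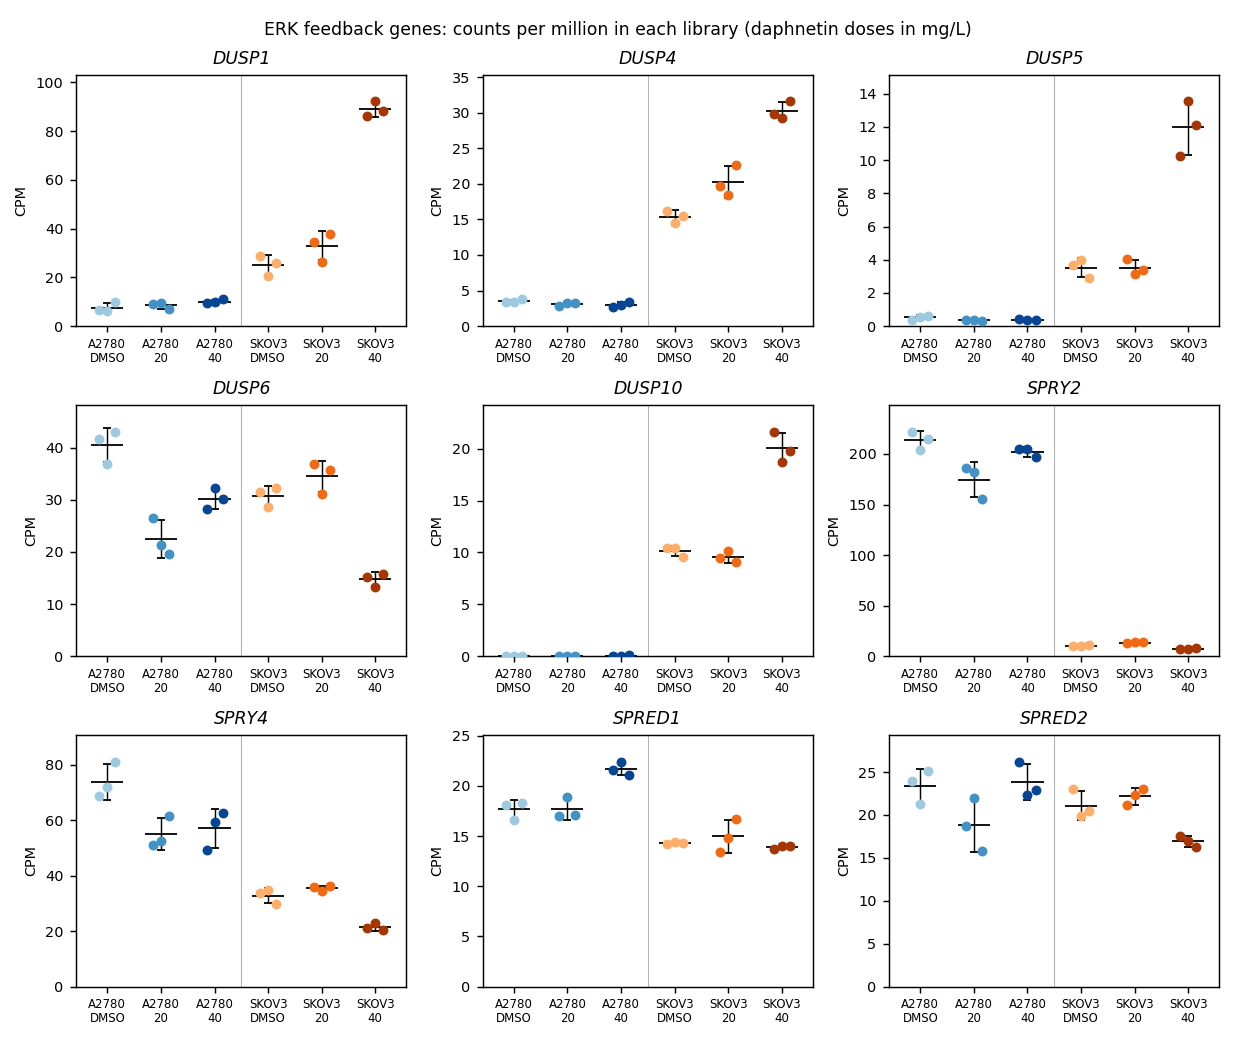
Level of each gene in CPM (TMM-scaled within each line; linear axes from 0) in every library, by line and daphnetin dose in mg/L; points are libraries, horizontal bars means and vertical bars SD of 3 libraries. In SKOV3 at 40 mg/L the points of DUSP1, DUSP4, DUSP5 and DUSP10 lie above, and those of DUSP6, SPRY2, SPRY4 and SPRED2 below, every DMSO point of that line, while in A2780 the clearest shift is the fall of DUSP6 at 20 mg/L.

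The strongest response was in SKOV3 at 40 mg/L, where the family split. The phosphatases DUSP1, DUSP4, DUSP5 and DUSP10 rose, while DUSP6, SPRY2, SPRY4 and SPRED2 fell. Among the 9 genes 4 were called higher and 4 lower, and 52.1% of the 21936 genes tested in this comparison were called, 26.4% higher and 25.6% lower. The libraries of both groups did not overlap in 9 of 9 genes, against 57.6% of all genes tested. All 8 calls stood under each alternative tried.

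DUSP1, a nuclear phosphatase of JNK, p38 and ERK (chromosome 5, 172768090 to 172771195, GRCh38, minus strand), rose most. In SKOV3 its level was 28.7, 20.5 and 25.9 CPM in the DMSO libraries, 34.6, 26.4 and 37.9 CPM at 20 mg/L, and 86.1, 92.1 and 88.3 CPM at 40 mg/L. The 20 mg/L libraries overlapped the DMSO libraries, and all 40 mg/L libraries lay above every other. The rise at 40 mg/L was 3.54-fold (log2 1.82, SE 0.15, adjusted p = 8.87e-06), and against 20 mg/L it was 2.70-fold (log2 1.43, SE 0.15, adjusted p = 4.82e-05). Against DMSO, DUSP1 was not called at 20 mg/L (log2 0.39, SE 0.15, adjusted p = 0.178). It was called there without 20 mg/L replicate 2 (log2 0.53, adjusted p = 7.41e-05) and with no filter on low counts (log2 0.39, adjusted p = 0.00186).

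DUSP5, a nuclear phosphatase of ERK (chromosome 10, 110497838 to 110511544, plus strand), was at 3.68, 4.01 and 2.89 CPM in SKOV3 DMSO libraries, 4.02, 3.13 and 3.41 CPM at 20 mg/L, and 10.2, 13.5 and 12.1 CPM at 40 mg/L. Its 20 mg/L libraries lay within the DMSO range or just above it, and 40 mg/L libraries stood clear. The change was 3.40-fold at 40 mg/L (log2 1.77, SE 0.13, adjusted p = 1.37e-13) and near none at 20 mg/L (log2 0.00, 95% interval -0.29 to 0.30, adjusted p = 0.994).

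DUSP4, a nuclear phosphatase of ERK and JNK (chromosome 8, 29333064 to 29350668, minus strand), was at 16.2, 14.4 and 15.5 CPM in SKOV3 DMSO libraries, 19.7, 18.4 and 22.7 CPM at 20 mg/L, and 29.9, 29.3 and 31.6 CPM at 40 mg/L. Here the 3 dose groups formed 3 separate steps with no overlap. DUSP4 rose 1.31-fold at 20 mg/L (log2 0.39, SE 0.08, adjusted p = 0.00063) and 1.96-fold at 40 mg/L (log2 0.97, SE 0.08, adjusted p = 8.15e-13). Between the doses it rose further (log2 0.58, SE 0.07, adjusted p = 6.74e-08).

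DUSP10 (chromosome 1, 221701424 to 221742176, minus strand) was at 10.4, 10.4 and 9.57 CPM in SKOV3 DMSO libraries, 9.48, 10.2 and 9.06 CPM at 20 mg/L, and 21.6, 18.8 and 19.7 CPM at 40 mg/L. Like DUSP5, its libraries at 20 mg/L overlapped those in DMSO and its libraries at 40 mg/L stood clear. The rise at 40 mg/L was 1.98-fold (log2 0.98, SE 0.08, adjusted p = 6.86e-12), and the difference at 20 mg/L was not called (log2 -0.08, 95% interval -0.26 to 0.10, adjusted p = 0.669).

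DUSP6, the cytoplasmic phosphatase of ERK (chromosome 12, 89347232 to 89353271, minus strand), went the other way. Its SKOV3 level was 31.5, 28.5 and 32.3 CPM with DMSO, 36.8, 31.1 and 35.7 CPM at 20 mg/L, and 15.3, 13.2 and 15.8 CPM at 40 mg/L. All 40 mg/L libraries lay below all others, and the 20 mg/L libraries overlapped the DMSO libraries. DUSP6 fell 2.09-fold at 40 mg/L (log2 -1.06, SE 0.08, adjusted p = 1.05e-13) and was not called at 20 mg/L (log2 0.16, SE 0.07, adjusted p = 0.166). Between the doses the fall was 2.34-fold (log2 -1.23, SE 0.08, adjusted p = 3.53e-15). An antisense gene, which the deposited annotation names only by a clone, overlaps 1875 of the exonic bases of DUSP6, 40.5% of them, and its CPM was 0.767 to 0.838 times that of DUSP6 in all 18 libraries. The antisense gene also fell at 40 mg/L (log2 -1.11, SE 0.08, adjusted p = 2.41e-13). The strand setting of the counting is not given, so reads from these genes cannot be told apart. No other of the 9 genes shared exonic bases with another gene of the table.

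SPRY2 (chromosome 13, 80335976 to 80340951, minus strand) was at 10.5, 10.2 and 11.1 CPM in SKOV3 DMSO libraries, 13.4, 13.8 and 13.7 CPM at 20 mg/L, and 7.14, 6.89 and 7.85 CPM at 40 mg/L. Its 3 groups did not overlap: the lower dose stood above DMSO and the higher dose below it. SPRY2 rose 1.29-fold at 20 mg/L (log2 0.36, SE 0.09, adjusted p = 0.00456) and fell 1.46-fold at 40 mg/L (log2 -0.54, SE 0.09, adjusted p = 6.99e-06). The step from 20 to 40 mg/L was a 1.87-fold fall (log2 -0.91, SE 0.09, adjusted p = 3.34e-10).

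SPRY4, a Sprouty protein with a similar role (chromosome 5, 142310427 to 142326455, minus strand), was at 33.9, 34.7 and 29.7 CPM in SKOV3 DMSO libraries, 36.0, 34.3 and 36.1 CPM at 20 mg/L, and 21.1, 22.8 and 20.4 CPM at 40 mg/L. The 40 mg/L libraries lay below all others. SPRY4 fell 1.53-fold at 40 mg/L (log2 -0.61, SE 0.07, adjusted p = 2.79e-09) and was not called at 20 mg/L (log2 0.12, 95% interval -0.02 to 0.25, adjusted p = 0.32).

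The Spred genes had the smallest changes of the 9 in SKOV3 at 40 mg/L. SPRED2 (chromosome 2, 65310851 to 65432637, minus strand) was at 23.0, 19.9 and 20.4 CPM with DMSO, 21.1, 22.3 and 23.0 CPM at 20 mg/L, and 17.5, 16.9 and 16.3 CPM at 40 mg/L, a 1.25-fold fall at 40 mg/L without overlap (log2 -0.32, SE 0.07, adjusted p = 0.000517). SPRED1 (chromosome 15, 38252326 to 38357249, plus strand) was at 14.2, 14.4 and 14.3 CPM with DMSO, 13.4, 14.8 and 16.7 CPM at 20 mg/L, and 13.7, 14.0 and 14.0 CPM at 40 mg/L. Its 40 mg/L libraries lay just below the DMSO libraries, but the difference was not called (log2 -0.04, 95% interval -0.21 to 0.13, adjusted p = 0.686). Neither Spred gene was called at 20 mg/L in SKOV3 (log2 0.06 and 0.07, adjusted p = 0.742 for SPRED1 and 0.652 for SPRED2).

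At 20 mg/L in SKOV3 the largest changes among the 9 genes were log2 0.39, for DUSP1 and DUSP4. The median of the 9 was 0.12, against 0.00 for all genes. DUSP4 and SPRY2 were the 2 genes called, both higher, of 9 tested, and 10.1% of all genes tested were called, 5.16% higher and 4.95% lower. Libraries did not overlap in the same 2 genes, against 27% of all genes. From 20 to 40 mg/L, 4 of 9 were called higher and 4 lower, and 47.4% of all genes were called, 23.2% higher and 24.2% lower. Libraries did not overlap in 8 of 9, against 53.4% of all genes. DUSP1, DUSP4, DUSP5 and DUSP10 made up the higher set and DUSP6, SPRY2, SPRY4 and SPRED2 the lower set. Both comparisons against DMSO share the DMSO libraries, and both comparisons with 40 mg/L share those of that dose.

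**Figure D2:**
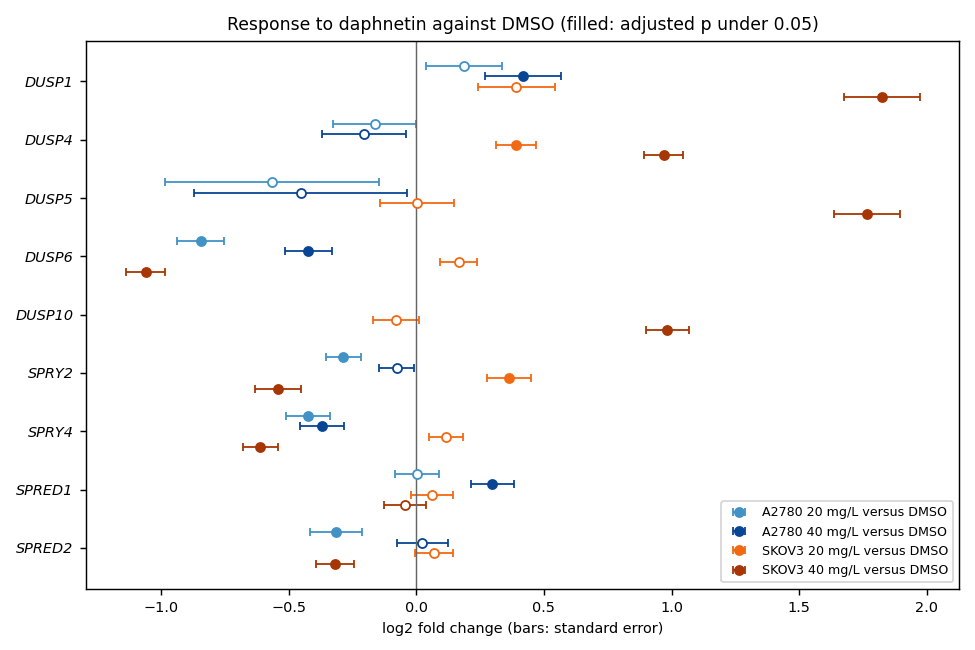
Log2 fold change of each gene at each daphnetin dose against DMSO, by line, on a linear log2 axis; points are estimates, bars are standard errors and filled points have an adjusted p under 0.05. In SKOV3 at 40 mg/L DUSP1 (1.82) and DUSP6 (-1.06) mark the opposite ends, while no gene passes 1 on the log2 scale in either direction in A2780; DUSP10 is not drawn for A2780, where it had 0 counts in 8 of 9 libraries.

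In A2780, DUSP6 and SPRY4 fell at both doses. At 20 mg/L DUSP6, SPRY4, SPRED2 and SPRY2 fell and none of these genes rose: 4 of the 8 tested were called lower and 0 higher, and 36.9% of the 20593 genes tested were called, 18% higher and 18.9% lower. DUSP10 was not tested. At 40 mg/L 2 of 8 were called higher, DUSP1 and SPRED1, and 2 lower, DUSP6 and SPRY4, and again 36.9% of all genes were called, 17.7% higher and 19.2% lower. Libraries did not overlap in 4 of 8 genes at 20 mg/L, against 46% of all genes, and in 3 of 8 at 40 mg/L, against 47.2%.

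DUSP6 showed the largest change in A2780 among the genes called. It was at 41.6, 36.9 and 43.1 CPM in DMSO libraries, 26.5, 21.4 and 19.6 CPM at 20 mg/L, and 28.2, 32.2 and 30.1 CPM at 40 mg/L. The 3 groups did not overlap, with 20 mg/L lowest and 40 mg/L in between. DUSP6 fell 1.80-fold at 20 mg/L (log2 -0.85, SE 0.09, adjusted p = 3.53e-08) and 1.34-fold at 40 mg/L (log2 -0.42, SE 0.09, adjusted p = 5e-04). It was higher at 40 than at 20 mg/L (log2 0.42, SE 0.09, adjusted p = 0.00255). Its antisense gene fell at 20 mg/L as well (log2 -0.85, SE 0.10, adjusted p = 1.07e-07).

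SPRY4 in A2780 was at 68.7, 71.9 and 81.1 CPM with DMSO, 51.1, 52.4 and 61.6 CPM at 20 mg/L, and 49.3, 59.4 and 62.6 CPM at 40 mg/L. All treated libraries lay below all DMSO libraries, and the doses overlapped each other. The fall was 1.34-fold at 20 mg/L (log2 -0.43, SE 0.09, adjusted p = 0.000359) and 1.29-fold at 40 mg/L (log2 -0.37, SE 0.09, adjusted p = 0.00136). The doses did not differ by a call (log2 0.05, 95% interval -0.13 to 0.23, adjusted p = 0.742).

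SPRY2, the most abundant of these transcripts in A2780, was at 222, 203 and 214 CPM with DMSO, 186, 182 and 155 CPM at 20 mg/L, and 205, 205 and 197 CPM at 40 mg/L. Libraries at 20 mg/L lay below both other groups, which overlapped. SPRY2 fell 1.22-fold at 20 mg/L (log2 -0.29, SE 0.07, adjusted p = 0.00127) and was not called at 40 mg/L (log2 -0.08, 95% interval -0.22 to 0.06, adjusted p = 0.404).

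SPRED1 in A2780 was at 18.1, 16.6 and 18.3 CPM with DMSO, 17.0, 18.8 and 17.1 CPM at 20 mg/L, and 21.5, 22.4 and 21.1 CPM at 40 mg/L. It rose 1.23-fold at 40 mg/L without overlap (log2 0.30, SE 0.09, adjusted p = 0.00644) and was not called at 20 mg/L (log2 0.00, 95% interval -0.18 to 0.18, adjusted p = 0.994). SPRED2 was at 23.9, 21.2 and 25.1 CPM with DMSO, 18.7, 21.9 and 15.7 CPM at 20 mg/L, and 26.2, 22.3 and 22.9 CPM at 40 mg/L. The 20 mg/L libraries of SPRED2 overlapped the DMSO libraries, and the call there was a 1.24-fold fall (log2 -0.32, SE 0.10, adjusted p = 0.0151). This call was lost without DMSO replicate 1 (log2 -0.29, adjusted p = 0.0536), DMSO replicate 3 (log2 -0.25, adjusted p = 0.0981), 20 mg/L replicate 1 (log2 -0.30, adjusted p = 0.0516) or 20 mg/L replicate 3 (log2 -0.21, adjusted p = 0.125). It was also lost without TMM scaling (log2 -0.22, adjusted p = 0.119).

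DUSP1 in A2780 was at 6.46, 6.40 and 9.87 CPM with DMSO, 9.15, 9.64 and 6.93 CPM at 20 mg/L, and 9.35, 9.85 and 11.0 CPM at 40 mg/L. DMSO replicate 3 was as high as the treated libraries, so the groups overlapped at both doses. The call at 40 mg/L was a 1.34-fold rise (log2 0.42, SE 0.15, adjusted p = 0.0297). The call did not stand without DMSO replicate 1 (log2 0.33, adjusted p = 0.131) or 2 (log2 0.32, adjusted p = 0.134), nor without 40 mg/L replicate 2 (log2 0.43, adjusted p = 0.0581) or 3 (log2 0.35, adjusted p = 0.125), nor when all 18 libraries were fitted together (log2 0.44, adjusted p = 0.122). The 20 mg/L difference of DUSP1 missed the threshold (log2 0.19, SE 0.15, adjusted p = 0.363) but passed it without DMSO replicate 3 (log2 0.43, adjusted p = 0.0232).

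DUSP4 and DUSP5 were low in A2780 and not called at either dose. DUSP4 stood at 3.43, 3.34 and 3.75 CPM with DMSO, 2.89, 3.24 and 3.25 CPM at 20 mg/L, and 2.64, 3.03 and 3.42 CPM at 40 mg/L (log2 -0.16, 95% interval -0.50 to 0.17 at 20 mg/L, and -0.21, interval -0.54 to 0.13 at 40 mg/L). DUSP5 stood at 0.367, 0.576 and 0.636 CPM with DMSO, 0.374, 0.383 and 0.301 CPM at 20 mg/L, and 0.414, 0.344 and 0.392 CPM at 40 mg/L. Its intervals were wide (log2 -0.57, 95% interval -1.42 to 0.29 at 20 mg/L, and -0.45, interval -1.31 to 0.40 at 40 mg/L), and both lay below the SKOV3 rise of 1.77 at 40 mg/L.

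From 20 to 40 mg/L in A2780, 4 of 8 genes were called, all higher: DUSP6 (log2 0.42), SPRED2 (log2 0.34, SE 0.10, adjusted p = 0.0224), SPRED1 (log2 0.30, SE 0.09, adjusted p = 0.0167) and SPRY2 (log2 0.21, SE 0.07, adjusted p = 0.0363). In this comparison 14.6% of all genes were called, 6.71% higher and 7.85% lower, and libraries did not overlap in 31.3% of all genes against 4 of these 8. The count of 4 fell to 1 without 20 mg/L replicate 3, and to 2 without the first library at 20 mg/L or replicates 1 or 2 at 40 mg/L. DUSP6 kept its call in each of these fits. SPRY2 lost its call without 20 mg/L replicate 3 (adjusted p = 0.255) or any 1 of the 40 mg/L libraries (adjusted p = 0.0922, 0.123 and 0.0641 without replicates 1, 2 and 3). SPRED1 lost its call without 20 mg/L replicate 1 (adjusted p = 0.08), 20 mg/L replicate 3 (adjusted p = 0.0733) or 40 mg/L replicate 2 (adjusted p = 0.0828). SPRED2 lost its call without 20 mg/L replicate 1 (adjusted p = 0.0669), 20 mg/L replicate 3 (adjusted p = 0.181) or 40 mg/L replicate 1 (adjusted p = 0.124).

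Summed per kilobase of exon, the 9 transcripts stood at 101 ± 4.81 CPM in A2780 DMSO libraries, 81.3 ± 6.86 at 20 mg/L and 95.1 ± 1.31 at 40 mg/L (SD, n = 3). SPRY2 was 68.5 ± 1.88% of that sum in DMSO, 69.8 ± 1.41% at 20 mg/L and 69.7 ± 1.51% at 40 mg/L. DUSP6 went from 8.53 ± 0.274% of the A2780 sum to 5.90 ± 0.643% and 6.83 ± 0.371%, and DUSP1 from 3.64 ± 0.833% to 5.14 ± 0.513% and 5.22 ± 0.456%. In SKOV3 the sum was 41.3 ± 2.69 CPM per kilobase in DMSO, 48.4 ± 3.96 at 20 mg/L and 74.3 ± 1.30 at 40 mg/L. DUSP1 went from 30.2 ± 3.24% of the sum in DMSO to 34.0 ± 3.51% and 59.6 ± 0.914%, while DUSP6 went from 16.3 ± 0.778% to 15.6 ± 0.619% and 4.32 ± 0.451%. Within a library, the ratio of the per-kilobase levels of DUSP1 and DUSP6 was 1.64 to 2.09 in SKOV3 DMSO and 1.94 to 2.44 at 20 mg/L. It averaged 13.9 ± 1.76 at 40 mg/L, with 12.9 as its lowest value. In A2780 the same ratio was 0.356 to 0.526 in DMSO, 0.791 to 1.04 at 20 mg/L and 0.701 to 0.838 at 40 mg/L, above DMSO in all treated libraries. By contrast, the ratio of SPRED1 to SPRED2 averaged 0.425 ± 0.0339 in SKOV3 DMSO and 0.512 ± 0.0240 at 40 mg/L.

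**Figure D3:**
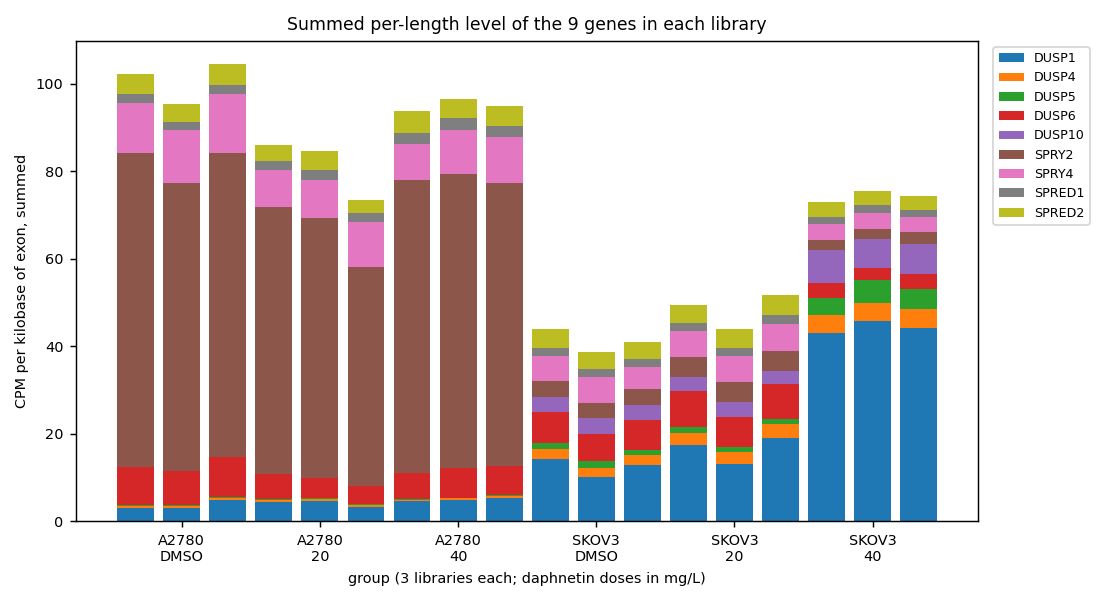
Stacked level of the 9 genes, in CPM per kilobase of exon (scaled over all 18 libraries; linear axis from 0), with 1 bar for each of the 3 libraries of a group and doses in mg/L. SPRY2 makes up most of every A2780 bar (68.5% on average in DMSO), and DUSP1 widens from 30.2% of the SKOV3 bars in DMSO to 59.6% at 40 mg/L.

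Whether the lines responded differently was tested as the difference of their responses, SKOV3 minus A2780, with the 18 libraries fitted together, and is given for the 8 genes other than DUSP10. At 20 mg/L 5 differed, all upward in SKOV3 relative to A2780, where 21.6% of the 23742 genes tested differed, 11% upward and 10.6% downward. DUSP6 differed most (log2 1.00, SE 0.13, adjusted p = 8.99e-08), followed by SPRY2 (log2 0.64, SE 0.10, adjusted p = 3.68e-06), DUSP4 (log2 0.55, SE 0.16, adjusted p = 0.0103) and SPRY4 (log2 0.54, SE 0.11, adjusted p = 0.000422). SPRED2 was called too (log2 0.38, SE 0.13, adjusted p = 0.0313), but not without TMM scaling (adjusted p = 0.0885), nor without A2780 DMSO replicate 1 (0.0587) or 3 (0.0965), A2780 20 mg/L replicate 1 (0.0543) or 3 (0.148), SKOV3 DMSO replicate 2 (0.0904) or 3 (0.0761), or SKOV3 20 mg/L replicate 2 (0.0591) or 3 (0.0736). DUSP1, DUSP5 and SPRED1 were not called (log2 0.20, 0.56 and 0.05, with 95% intervals -0.37 to 0.77, -0.19 to 1.31 and -0.19 to 0.30).

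At 40 mg/L 7 of the 8 differed, 3 upward and 4 downward in SKOV3 relative to A2780, and 29.9% of all genes differed, 14.3% upward and 15.7% downward. DUSP5 (log2 2.19, SE 0.37, adjusted p = 7.35e-06), DUSP1 (log2 1.38, SE 0.26, adjusted p = 0.00093) and DUSP4 (log2 1.15, SE 0.16, adjusted p = 3e-07) moved further up in SKOV3. DUSP6 (log2 -0.66, SE 0.13, adjusted p = 7.71e-05) and SPRY2 (log2 -0.49, SE 0.10, adjusted p = 0.000242) moved further down. SPRED1 (log2 -0.37, SE 0.12, adjusted p = 0.0165) and SPRED2 (log2 -0.36, SE 0.13, adjusted p = 0.0291) were called with less margin. SPRED1 lost the call without A2780 DMSO replicate 2 (log2 -0.32, adjusted p = 0.0543), and SPRED2 lost it without A2780 DMSO replicate 2 (adjusted p = 0.101), A2780 40 mg/L replicate 1 (0.105), SKOV3 DMSO replicate 1 (0.107) or SKOV3 40 mg/L replicate 3 (0.0599), and without both A2780 libraries of lowest mitochondrial share (0.066). SPRY4, which fell in both lines, missed the threshold (log2 -0.27, SE 0.11, adjusted p = 0.0766) and passed it under 9 of 25 alternatives, among them without A2780 DMSO replicate 3 (adjusted p = 0.0278), A2780 40 mg/L replicate 1 (0.0103), SKOV3 DMSO replicate 3 (0.0319) or SKOV3 40 mg/L replicate 2 (0.0402).

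The DUSP and Sprouty genes left out of the set were read beside it, together with lists of the kinases and of ERK-induced genes. All were written from general knowledge, with earlier results of these data known. In SKOV3 at 40 mg/L, 2 of 4 other MAPK phosphatases tested were called higher and 0 lower, where 52.1% of all genes were called: DUSP8, which acts on JNK and p38, rose by log2 1.56 (SE 0.16, adjusted p = 4.03e-10) and DUSP16 by log2 0.20 (SE 0.08, adjusted p = 0.031). Of the 3 other Sprouty and Spred genes, SPRY1 fell by 1.43 on the log2 scale (SE 0.09, adjusted p = 6.31e-16), from 18.4 ± 0.0656 to 6.83 ± 0.209 CPM. SPRED3 fell by 0.32 (SE 0.13, adjusted p = 0.0296) and SPRY3 rose by 0.63 (SE 0.22, adjusted p = 0.0138). In A2780 at 40 mg/L DUSP2 was the 1 of 5 other phosphatases called (log2 -1.22, SE 0.33, adjusted p = 0.00365), from 1.30 ± 0.362 to 0.555 ± 0.188 CPM. SPRY1 was the 1 of 3 Sprouty and Spred genes called there (log2 0.25, SE 0.09, adjusted p = 0.0262).

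Transcripts known to be induced by ERK also moved in both directions in SKOV3 at 40 mg/L. Of 16, 5 were called higher and 6 lower, beside 26.4% and 25.6% of all genes, with a median log2 change of -0.00 against 0.01 for all genes. The transcription factors EGR1 (log2 2.62, SE 0.17, adjusted p = 1.69e-06) and MYC (log2 1.69, SE 0.06, adjusted p = 7.27e-22) and the growth factor HBEGF (log2 1.60, SE 0.10, adjusted p = 3.9e-15) rose. The ETS factors ETV1 (log2 -2.12, SE 0.13, adjusted p = 5.5e-16), ETV4 (log2 -1.58, SE 0.12, adjusted p = 4.56e-13) and ETV5 (log2 -0.40, SE 0.07, adjusted p = 1.43e-05) fell. The medians of the 9 feedback genes were -0.04 in this comparison, -0.14 over the 8 tested in A2780 at 40 mg/L and -0.30 over the same 8 at 20 mg/L. In SKOV3 at 20 mg/L 8 of 16 ERK-induced transcripts were called higher and 1 lower, beside 5.16% and 4.95% of all genes, with EGR1 (log2 1.85, SE 0.17, adjusted p = 0.000173) and FOS (log2 1.06, SE 0.13, adjusted p = 9.84e-07) among them, while of the feedback genes DUSP4 and SPRY2 were called.

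In A2780 at 40 mg/L 5 of 15 ERK-induced transcripts tested were called higher and 5 lower, and at 20 mg/L 5 were higher and 6 lower, with 36.9% of all genes called at either dose. MYC (log2 -1.06, SE 0.07, adjusted p = 4.09e-12) and the cyclin gene CCND1 (log2 -0.53, SE 0.07, adjusted p = 6.5e-07) fell at 40 mg/L with DUSP6 and SPRY4. FOSL1, a component of AP-1 (log2 0.75, SE 0.11, adjusted p = 4.23e-06), and the receptor gene EPHA2 (log2 0.68, SE 0.08, adjusted p = 9.16e-08) rose at that dose. EGR1 was called higher in A2780 at 20 mg/L (log2 1.66, SE 0.48, adjusted p = 0.0365). Its A2780 level was 9.71 ± 1.39 CPM in DMSO, 30.6 ± 16.5 at 20 mg/L and 26.8 ± 2.6 at 40 mg/L. The lowest library at 20 mg/L had 11.5 CPM of EGR1, against 11.3 CPM in the highest DMSO library. FOS stood at 2.19 ± 0.683, 7.03 ± 4.13 and 6.11 ± 1.03 CPM in the same groups. Neither FOS at either dose nor EGR1 at 40 mg/L was called. ORAOV1, on the other strand, overlaps 10.3% of the exonic bases of CCND1. MYC therefore moved in opposite directions in the lines, and the difference of its responses at 40 mg/L was log2 2.72 (SE 0.10, adjusted p = 1.23e-23).

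The kinase relay itself moved in both directions. Of 22 genes from the receptor adaptors to ERK, 7 were called higher and 7 lower in SKOV3 at 40 mg/L (median log2 0.03), beside 52.1% of all genes called. In A2780 at that dose 6 were higher and 3 lower (median 0.11), beside 36.9% of all genes. KSR1, a scaffold of the relay (log2 0.52, SE 0.08, adjusted p = 9.57e-07), and the RAS inactivator RASA1 (log2 -0.58, SE 0.06, adjusted p = 3.06e-10) set the range in SKOV3. A gene on the other strand overlaps 5.58% of the exonic bases of KSR1 and a gene on the same strand 3.68%, and 2 genes on the other strand overlap 8.37% and 6.37% of those of RASA1. Of 15 genes of the JNK and p38 relays, which DUSP1 and DUSP10 restrain, 4 were called higher and 4 lower in SKOV3 at 40 mg/L, again beside 52.1% of all genes. MAP2K6, a kinase that activates p38, fell by 1.81 on the log2 scale (SE 0.18, adjusted p = 2.1e-10), and MAPK8, which encodes JNK1, rose by 0.37 (SE 0.07, adjusted p = 2.42e-05). Of the same list MAPK13 rose most (log2 0.52, SE 0.16, adjusted p = 0.00738). MAPK10 (log2 -1.33, SE 0.15, adjusted p = 6.52e-09) and MAP3K5 (log2 -0.82, SE 0.07, adjusted p = 1.74e-12) fell too.

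**Figure D4:**
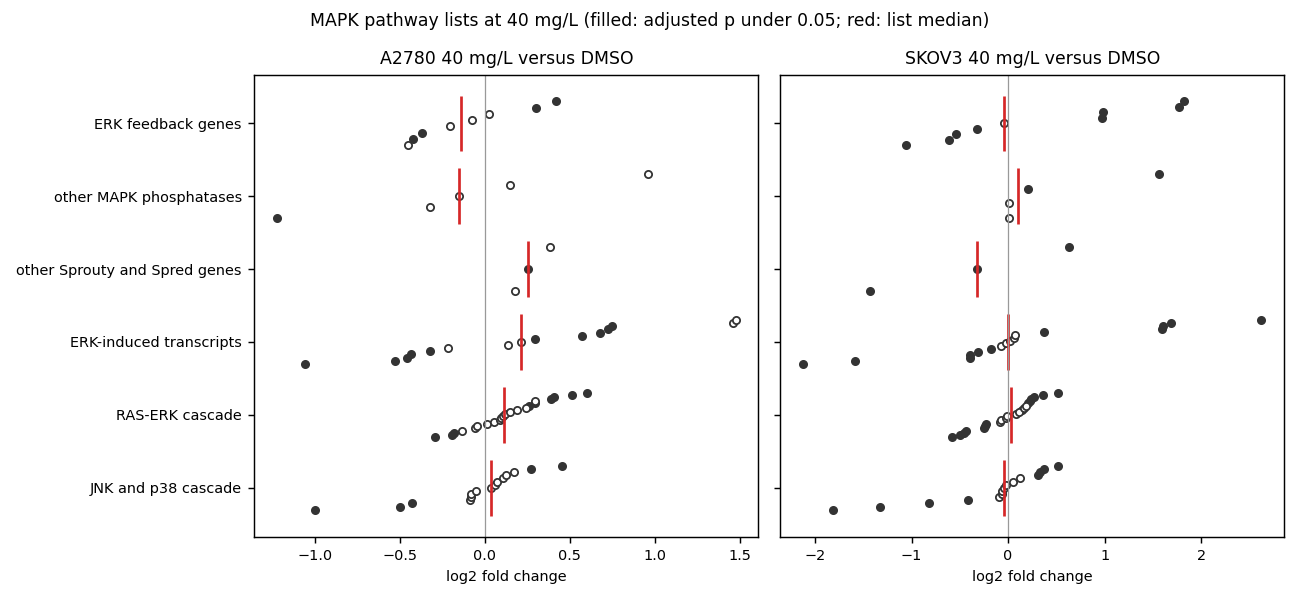
Log2 fold change at 40 mg/L daphnetin against DMSO for the feedback genes and 5 lists of the same pathways, 1 panel for each line (linear log2 axes whose ranges differ between panels); each point is a gene, filled where its adjusted p was under 0.05, and red lines are list medians. In SKOV3 the feedback genes and the ERK-induced transcripts both spread to either side of 0, from -1.06 to 1.82 and from -2.12 to 2.62, with medians of -0.04 and -0.00.

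Some markers of cell types also changed with daphnetin. In SKOV3 at 20 mg/L, 2 of 4 fibroblast markers and 1 of 6 epithelial and carcinoma markers were called lower, beside 4.95% of all genes. The other markers of these 2 lists were not called at that dose. Sums over a list weigh its most abundant genes most. Summed, the 4 fibroblast markers stood at 394 to 402 CPM in SKOV3 DMSO libraries, 297 to 309 at 20 mg/L and 206 to 210 at 40 mg/L. At 40 mg/L 4 of 4 were called lower, beside 25.6% of all genes called lower and 26.4% higher. The 6 epithelial and carcinoma markers summed to 1645 to 1656 CPM in SKOV3 DMSO libraries, 1322 to 1409 at 20 mg/L and 1189 to 1218 at 40 mg/L. At 40 mg/L 4 of them were called lower and 1, PAX8, higher, beside the same shares of all genes. The 3 endothelial markers summed to 2.95 to 3.41 CPM in SKOV3 DMSO libraries, 4.04 to 4.74 at 20 mg/L and 0.667 to 1.15 at 40 mg/L. PECAM1, the 1 of them tested, was called higher at 20 mg/L (log2 0.47) and lower at 40 mg/L (log2 -1.75). Immune markers summed to 0.834 to 1.28 CPM over the 9 SKOV3 libraries. In A2780 the fibroblast markers summed to 137 to 162 CPM in DMSO, 119 to 144 at 20 mg/L and 116 to 132 at 40 mg/L. DCN was called lower there at both doses (log2 -0.31 and -0.38), PDGFRB (log2 0.34) and EPCAM (log2 0.87) higher at 20 mg/L, and CD14 lower at 40 mg/L (log2 -1.75). The part of these shifts in the results on the feedback genes was not tested.

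Finally, the genes whose pattern was most like each feedback gene were sought among 9845 genes with a symbol and at least 5 CPM on average in both lines. The measure was Pearson's r of log2 CPM, centred within each line, over the 18 libraries, which share 6 groups and their scaling. The 3 closest to DUSP6 were MEIS2 (r = 0.972), NAV1 (r = 0.97) and GTF3C6 (r = 0.964). Close to DUSP1 were SNHG5 (r = 0.965) and DNAJC6 (r = 0.947). For DUSP4 the 3 closest were GPC1 (r = 0.932), DNAJC6 (r = 0.924) and TMEM259 (r = 0.922), and for DUSP5 they were RYBP (r = 0.948), FAM102A (r = 0.944) and PITHD1 (r = 0.944). Within A2780 alone (9 libraries) r was 0.339 for DUSP4 with GPC1, 0.162 for DUSP4 with DNAJC6 and 0.506 for DUSP1 with DNAJC6, against 0.985, 0.981 and 0.988 within SKOV3, so these likenesses were carried by SKOV3. Closest to SPRY2 were IKBKE (r = 0.952), HMGA1 (r = 0.946) and RAD50 (r = 0.941), and closest to SPRY4 SLC2A4RG (r = 0.956), DNAJC17 (r = 0.942) and RASA3 (r = 0.941). The Spred genes had ARFGEF1 (r = 0.887), GPR108 (r = 0.863) and STIM2 (r = 0.859) closest to SPRED1 and PYGL (r = 0.918), BMPR1A (r = 0.913) and HIP1 (r = 0.91) closest to SPRED2. For SPRED1 the values within SKOV3 were lower, at 0.659, 0.772 and 0.566. QSOX1 (r = 0.852), RNF216P1 (r = 0.845) and WAC (r = 0.844) came closest to DUSP10, which varied in A2780 only through the 4 counts of 1 library. Among the feedback genes themselves, by the same measure, DUSP6 ran with SPRY2 (r = 0.915) and SPRY4 (r = 0.867), and DUSP1 with DUSP4 (r = 0.857) and DUSP5 (r = 0.841), while DUSP1 and DUSP6 ran in opposite directions (r = -0.713). These values pool both lines. In A2780 mean DUSP1 went from 7.58 CPM in DMSO to 8.57 at 20 mg/L and 10.1 at 40 mg/L. Mean DUSP4 went there from 3.51 to 3.13 and 3.03 CPM, and mean DUSP5 from 0.526 to 0.353 and 0.383 CPM.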

How the data were processed

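Whole-number read counts per gene, not normalised, were used as the authors deposited them for 18 libraries, with each gene's coordinates and exonic length. Per the labels' protocols, libraries were made with a stranded mRNA kit. Per the submitters' processing notes, Trimmomatic 0.36 and build GRCh38 were used. Columns are laid out as featureCounts writes them, per the file headers. No source used here gives the aligner, counter, annotation release or strand setting. Of the counts from 1 to 12, 74.3% to 77% per library were even, so both mates of a pair appear to have been counted and totals overstate fragments. The table holds 28 gene identifiers turned into dates, which stayed in the totals. Replicate libraries differed beyond counting error in every pair (chi-square per degree of freedom 4.69 to 31.2), so none looked like 1 library deposited more than once.

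Each line was fitted alone (6 residual degrees of freedom), and all 18 libraries together (12) for the comparison of lines in DMSO and of their responses. Genes were kept by filterByExpr (20593 in A2780, 21936 in SKOV3, 23742 together), scaled by TMM and tested with edgeR 4.0.16 (glmQLFit, robust, and glmQLFTest, two-sided) in R 4.3.3. Benjamini-Hochberg adjusted p-values cover every gene kept in a fit. Each SE is the log2 fold change over the square root of F. The variation among libraries that edgeR reports as BCV came to 7.71% for A2780 and 5.83% for SKOV3, and it may be technical here. Levels between lines and per kilobase were scaled over all 18 libraries, others within a line. A count of 0 in a library was taken to allow up to 3 counts, 0.0798 to 0.0988 CPM in A2780. This floor takes each count as a separate fragment, so it is too low if both mates were counted. It covers counting error only, while the 95% intervals of fold changes include the variation among libraries.

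The 9 genes and the lists were chosen with earlier results of these data known. Genes outside the set were named by a rule: at most the 3 highest and 3 lowest called genes of a list and comparison, and the 3 genes most like each member, of which 1 is not reported here. Alternatives were RLE size factors, DESeq2 1.42.0, no filter, the replicate number as a block, counts halved, all libraries in 1 fit, each replicate left out, 2 A2780 libraries of low mitochondrial share left out, and, chosen after seeing the data, library totals without TMM.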

Additional observations from a re-analysis of the deposited data

Results flagged for a closer look

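The genes below are given because the response to daphnetin differed between the lines by the test of that difference (SKOV3 minus A2780, log2, quasi-likelihood test of edgeR, Benjamini-Hochberg adjusted, 3 libraries per group). At 20 mg/L the differences were 1.00 for DUSP6, 0.644 for SPRY2, 0.549 for DUSP4, 0.536 for SPRY4 and 0.378 for SPRED2. DUSP6 and SPRY2 fell in A2780 at that dose (log2 -0.85 and -0.29). In SKOV3 SPRY2 rose (log2 0.36) and DUSP6 was not called (log2 0.16).

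At 40 mg/L the differences were 2.19 for DUSP5, 1.38 for DUSP1, 1.15 for DUSP4, -0.662 for DUSP6, -0.489 for SPRY2, -0.366 for SPRED1 and -0.365 for SPRED2. DUSP6, SPRY2 and SPRED2 thus changed the sign of their differences between doses, though both SPRED2 calls were lost under several alternatives. For DUSP6, A2780 fell further at 20 mg/L and SKOV3 at 40 mg/L. The A2780 level of DUSP5 rested on 10 to 20 counts per library. The lines were also grown in different media, which cannot be told apart from the line.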

How the results depend on the processing

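Over the alternatives, 75 results on single members gave 1436 values: 1366 kept their direction and side of the threshold, 36 lost a call, 12 gained one and 22 changed sign. The sign changes were in results not called in the report or under those alternatives. The count of members called was 8 in SKOV3 at 40 mg/L against DMSO and against 20 mg/L under each alternative. In A2780 from 20 to 40 mg/L it ran from 1 to 4 with a replicate left out, and all genes called from 1583 (without 20 mg/L replicate 3; 1797 without 40 mg/L replicate 2) to 3499, against 2999. In SKOV3 at 20 mg/L all genes called ran from 1443 to 2652 with a replicate left out, lowest without DMSO replicate 3, and were 1466 with all 18 libraries in 1 fit, against 2217. The cause was not tested.

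Without TMM, the median of all genes in A2780 at 40 mg/L moved from -0.01 to 0.09 (log2), and the share of calls that were higher moved from 47.9% to 65% there, from 48.9% to 65% in A2780 at 20 mg/L, from 51.1% to 66.3% in SKOV3 at 20 mg/L, and from 51.1% to 40.9% for the difference of responses at 20 mg/L. Same-numbered libraries share only a number (deviation correlations -0.0585 to 0.0507). With the replicate number as a block the members called were 4, 4 and 4 in A2780 (20 mg/L, 40 mg/L, and 40 against 20 mg/L), 2, 8 and 8 in SKOV3, 5 and 8 for the differences of responses and 7 in DMSO, beside 7255, 7312 and 2693, 2537, 11622 and 10638, 5024 and 7031, and 17099 of all genes. Under the block, SPRED1 in DMSO (adjusted p = 0.126) lost its call and SPRY4 gained one for the difference at 40 mg/L (log2 -0.26, adjusted p = 0.0335), by edgeR. Depth limits DUSP10 and DUSP5 in A2780.

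The values that changed sign are log2 differences near 0. Without both A2780 libraries of lowest mitochondrial share, SPRED1 at 20 mg/L was -0.0522, SPRED2 at 40 mg/L -0.0539 and DUSP4 from 20 to 40 mg/L 0.0733 in A2780. Without TMM, SPRY2 in A2780 at 40 mg/L was 0.0271, SPRED1 in SKOV3 at 40 mg/L 0.00127 and the SPRED1 difference of responses at 20 mg/L -0.00115. DUSP5 in SKOV3 at 20 mg/L was -0.00508 with RLE size factors, -0.00684 with DESeq2 and -0.00308 with no filter. With a replicate left out, A2780 values ran from -0.0524 to 0.0427 for SPRED1 at 20 mg/L, from -0.0536 to 0.0885 for SPRED2 at 40 mg/L, and, from 20 to 40 mg/L, from -0.136 to 0.0444 for DUSP4 and from -0.0159 to 0.148 for SPRY4. SKOV3 values at 20 mg/L ran from -0.131 to 0.0940 for DUSP5 and from -0.0208 to 0.137 for SPRED1. Differences of responses at 20 mg/L ran from -0.0308 to 0.336 for DUSP1 and from -0.0287 to 0.120 for SPRED1. The cause was not tested.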
